A study of Mus musculus with 6 samples.

Results

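Acute-phase genes encode plasma proteins whose levels shift in inflammation. The 10 examined here, of 46983 genes in the count table, were Fga, Fgb and Fgg for the fibrinogen chains, Lcn2 for lipocalin 2, Saa3, Serpina3n, Orm1, Hp, C3 and Cp. They were picked by symbol from GENCODE M21 names, and the set was chosen by the levels of these genes in the same libraries. Their differences between low and high glucose are therefore given as a description, with no test. Of the 10, 8 passed the filter on low counts and entered the fit, and Hp and Orm1 did not.

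Polyadenylated RNA was sequenced from isolated wild-type mouse islets held in CMRL culture medium for 24 h, with 3 libraries at low (non-stimulating) and 3 at high (stimulating) glucose. Both groups shared genotype, medium and culture time. Neither concentrations of glucose nor strain, sex, age or animal numbers are stated in the labels. They also do not say whether each library was a separate culture or animal, so tests cover the spread among these libraries alone, which may be technical.

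Libraries held 10596020 to 15846235 counts. Principal component 1 (72.7% of variance) split low from high glucose, and component 2 (14.6%) split replicate 1 of both groups (scores 50.5 at high and 18.8 at low glucose) from replicates 2 and 3 (-13 to -27.3). Digestive enzyme transcripts of acinar cells, the exocrine cells around islets, took 49.4% to 65.4% of counts at low and 12.8% to 25.3% at high glucose. The 30 islet endocrine markers, all detected, took 2.38% to 5.08% at low and 4.18% to 11.1% at high glucose. Levels are CPM, counts per 1000000 on TMM-scaled library sizes, a scaling that assumes most genes are alike between groups. With plain library totals the median log2 fold change of all tested genes moved from 0.01 to 1.16, and values on that scale are read against that shift. In bulk RNA, fewer cells of a type and less RNA per cell cannot be told apart.

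In an acute-phase response, cytokines of the IL-6 family act through the receptor subunit gp130 and the transcription factor STAT3, while IL-1 and TNF act through NF-kappaB and C/EBP factors. Hepatocytes are the main source of most of these proteins. Lcn2, Saa3, Serpina3n and C3 are also made by epithelial cells, macrophages and other tissues under inflammatory signals.

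The 3 fibrinogen chain genes and Lcn2 had nearly no counts at low glucose and clear counts in every high glucose library. Saa3 and Serpina3n were higher by smaller amounts, Orm1 had only a few counts, C3 was lower on the TMM scale, and Hp and Cp overlapped between the groups. On TMM-scaled CPM, 7 of the 10 had every high glucose library above every low glucose library, and 1, C3, had every one below. Among all 13996 tested genes these shares were 23.5% and 22.4%. The members were chosen on this contrast, so nothing is read from their share. With library totals, 8 lay above and none below, since Cp joined the first set and C3 overlapped.

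**Figure D1:**
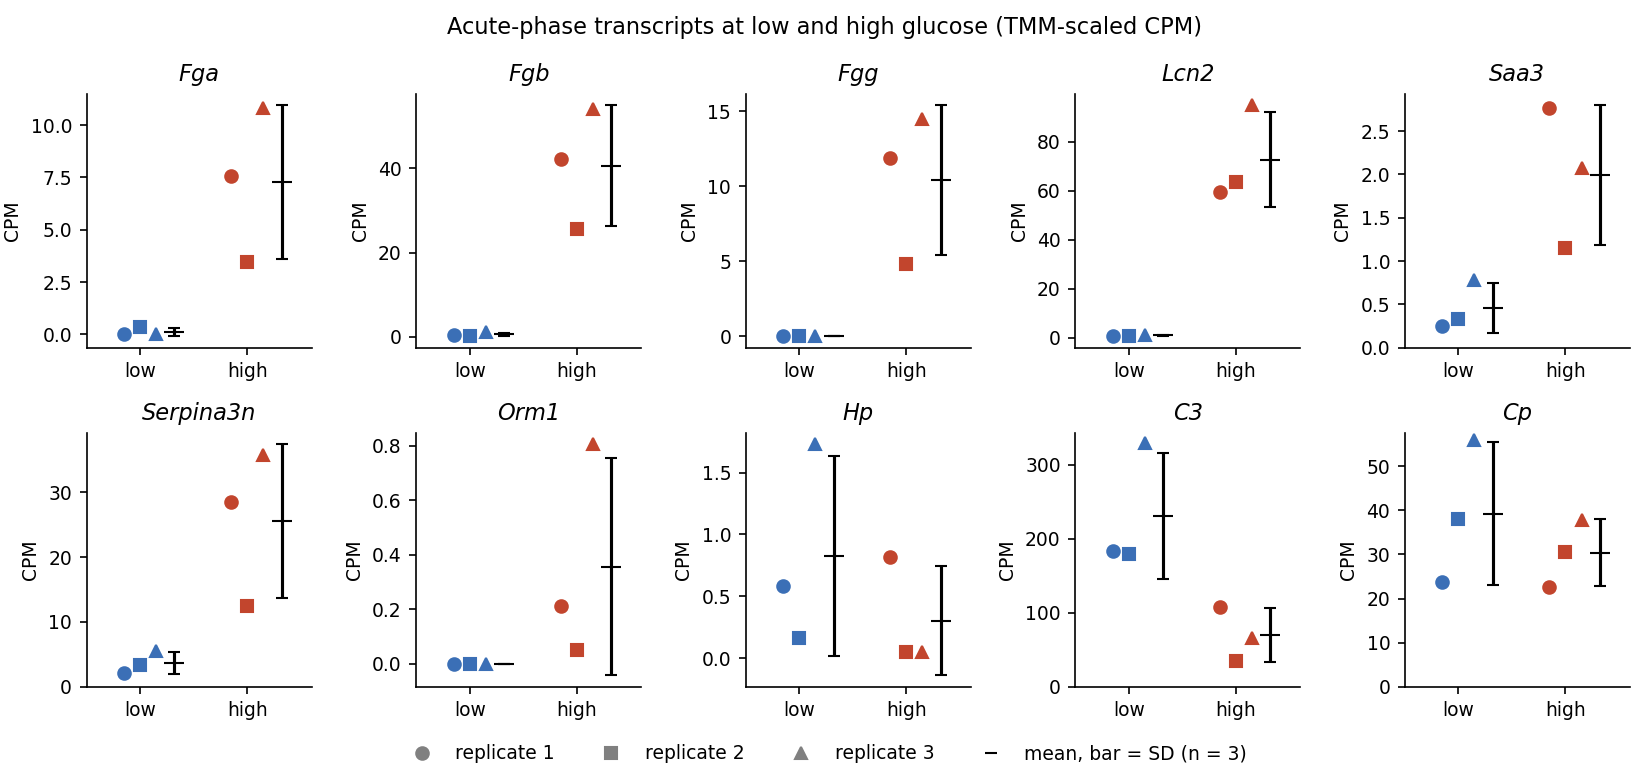
TMM-scaled CPM of each of the 10 genes in the 3 low (blue) and 3 high (red) glucose libraries, with the replicate number as the symbol and the mean ± SD beside each group. Fibrinogen chains and Lcn2 sit near 0 at low glucose, C3 is lower at high glucose, and Hp and Cp overlap.

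Fibrinogen is the clotting protein that thrombin turns into fibrin, built from Aα, Bβ and γ chains whose genes lie side by side on mouse chromosome 3. On GRCm38, Fgg spans chr3:83007724-83015049 on the plus strand, Fga chr3:83026076-83033627 on the plus strand and Fgb chr3:83040141-83049863 on the minus strand. The sequences before their start sites are printed because all 3 genes had counts almost only at high glucose. They come from the RefSeq promoter table on GRCm38.p6, 5′ to 3′ on each gene's strand, with matches to the C/EBP motif TTGCNNAA or the STAT3 motif TTCNNNGAA in capitals. For Fga, only the 173 bases outside GENCODE exons are given.
Fgb, chr3:83049864-83050113: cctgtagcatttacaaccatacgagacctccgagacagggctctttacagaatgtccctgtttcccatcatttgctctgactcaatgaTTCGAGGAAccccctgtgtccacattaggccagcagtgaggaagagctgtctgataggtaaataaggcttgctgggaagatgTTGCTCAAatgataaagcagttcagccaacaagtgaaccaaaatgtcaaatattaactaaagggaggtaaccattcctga
Fga, chr3:83025903-83026075: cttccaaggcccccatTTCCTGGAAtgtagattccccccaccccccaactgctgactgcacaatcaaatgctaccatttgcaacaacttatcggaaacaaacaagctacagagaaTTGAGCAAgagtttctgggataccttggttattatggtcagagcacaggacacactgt
Fgg, chr3:83007474-83007723: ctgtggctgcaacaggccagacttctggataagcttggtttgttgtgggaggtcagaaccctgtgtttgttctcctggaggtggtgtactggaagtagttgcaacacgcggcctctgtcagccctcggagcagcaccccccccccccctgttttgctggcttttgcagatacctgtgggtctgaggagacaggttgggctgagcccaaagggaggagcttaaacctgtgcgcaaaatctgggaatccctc

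Fga and Fgb each held 1 C/EBP match, 135 and 80 bases before the RefSeq start site, and 1 STAT3 match, 234 and 162 bases before it. The Fgg stretch held neither of these motifs, which says only that these letters are not in this window.

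Fgb, the most abundant chain gene, had 5, 2 and 7 counts in replicates 1 to 3 at low glucose, against 1195, 512 and 1075 at high glucose. Mean levels were 0.617 ± 0.421 CPM at low against 40.7 ± 14.4 CPM at high glucose (SD over 3 libraries each). Its log2 fold change was 6.10 ± 0.47 (SE), and 7.25 with library totals. All 3 high glucose libraries lay far above all low glucose libraries, and replicate 2 was the lowest of the high ones.

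Fga, the Aα chain gene, had 0, 2 and 0 counts at low and 214, 69 and 215 at high glucose, or 7.57, 3.44 and 10.8 CPM in the high glucose libraries. The high-to-low ratio of scaled counts was 88.9, with an exact 95% interval of 24.5 to 736 that covers counting error only. The fitted log2 fold change was 6.29 ± 0.94, and it ran from 5.43 without low glucose replicate 1 to 9.98 without low glucose replicate 2. That last library held both low glucose counts, so the size of this ratio rests on them. Without it no low glucose count is left, and 9.98 is a fitted value that depends on the prior count.

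Fgg, the γ chain gene, had no counts at low glucose and 336, 97 and 287 counts at high glucose, a level of 10.4 ± 4.98 CPM (SD, n = 3). Against a floor of 3 counts over the low glucose group it was at least 85.7-fold higher, or at least 188-fold higher with library totals. Without low glucose replicate 1 the log2 bound moved from 6.42 to 5.45, since fewer low glucose reads then set the floor. A long noncoding gene on the opposite strand, Gm30097, overlaps Fgg, and it had 1 count in all, in low glucose replicate 1. Every high glucose library thus had Fgg reads and no low glucose library had any.

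Per kilobase of exon (FPKM), the chains stood in the same order in each high glucose library. Fgb had 11.1, 6.71 and 14.2 FPKM, Fgg 5.68, 2.31 and 6.91, and Fga 2.52, 1.14 and 3.6 in replicates 1 to 3. The ratio of Fgb to Fga was 4.41, 5.86 and 3.95, that of Fgb to Fgg 1.95, 2.9 and 2.06, and that of Fgg to Fga 2.26, 2.02 and 1.92. The ratio of Fgg to Fga varied least, at 2.07 ± 0.174 (SD, n = 3), against 4.74 ± 0.998 for Fgb to Fga. On this TMM-based scale all 3 levels were lowest in replicate 2 and highest in replicate 3. With library totals replicate 2 stayed lowest, but Fgg was highest in replicate 1 (21.2 CPM, against 20.3 in replicate 3). Fgb was then nearly equal in replicates 1 and 3 (75.4 and 76 CPM).

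**Figure D2:**
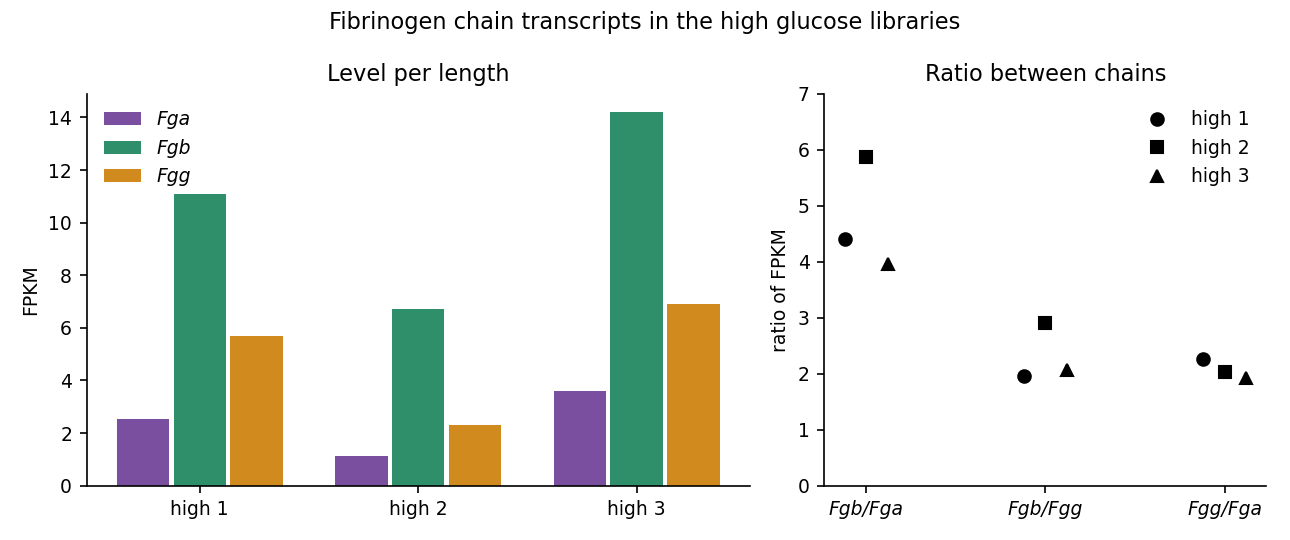
Left, FPKM (TMM-scaled CPM per kilobase of exon) of the 3 fibrinogen chain genes in each high glucose library, and right, the ratio between chains in each of those libraries. Fgb exceeds Fgg, and Fgg exceeds Fga, in all 3 libraries.

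Genes beside the fibrinogen locus gave a view of its surroundings. Plrg1, a splicing factor gene 5.66 kb from Fgb, rose from 17.6 ± 1.78 to 26.3 ± 2.69 CPM (SD, n = 3 each), with a log2 fold change of 0.58 ± 0.16 with an adjusted p of 0.0337 in edgeR's quasi-likelihood test with Benjamini-Hochberg adjustment. Dchs2, 78.1 kb from Fgb beyond Plrg1, had 0 to 3 counts per library. The fibrinogen-like genes elsewhere in the genome did not pass in the main fit with the same edgeR test. Fgl1 had 1.34 ± 0.60 (edgeR adjusted p 0.132) and Fgl2, a secreted immune regulator, -0.75 ± 0.32 (edgeR adjusted p 0.117). Fgl1 passed upward with library totals and without low glucose replicate 3, and Fgl2 passed downward without high glucose replicate 1.

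Lcn2 encodes lipocalin 2, a secreted protein that binds bacterial iron carriers. The gene lies at chr2:32384633-32388252 on the minus strand. It had 7, 5 and 7 counts at low and 1683, 1267 and 1883 at high glucose, or 0.839 ± 0.258 and 72.6 ± 19.4 CPM (SD, n = 3 each). The groups were far apart, and its SD at high glucose was smaller relative to its mean than that of any fibrinogen gene. Its log2 fold change was 6.49 ± 0.32, 7.62 with library totals and 6.81 with sizes set by the islet endocrine markers. Only 19 tested genes had a larger fitted value, a rank from which nothing is read, since Lcn2 was chosen on this contrast. At 27.7 ± 7.4 FPKM it was also the most abundant of the 10 genes at high glucose, above 94.2% of tested genes.

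The RefSeq window of Lcn2 starts from a site inside the GENCODE gene, and 197 of its 250 upstream bases lie in GENCODE exons. It held the C/EBP match TTGCTCAA, 216 bases before that site, the same letters as the match before Fgb. Neighbouring genes showed smaller values: Ciz1, 3.66 kb away, had a log2 fold change of 0.22 ± 0.20 (edgeR adjusted p 0.433), and Ptges2, a prostaglandin synthase gene 7.64 kb away, 0.64 ± 0.28 (edgeR adjusted p 0.132). Dnm1, a dynamin gene 31.3 kb away, fell by 2.66 ± 0.51 (edgeR adjusted p 0.00975). The genes flanking Lcn2 thus had log2 fold changes far below its own.

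Serpina3n encodes a secreted serine protease inhibitor related to human antichymotrypsin, at chr12:104406729-104414329 on the plus strand. It had 25, 20 and 35 counts at low and 807, 250 and 708 at high glucose, or 3.64 ± 1.73 and 25.6 ± 11.9 CPM (SD, n = 3 each). Its log2 fold change was 2.85 ± 0.49, and 4.10 with library totals. Serpina3n belongs to a cluster of near-identical genes. How reads that match several of them were counted is not stated, so single values are uncertain.

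In that cluster, Serpina3f rose by 4.22 ± 0.90 (edgeR adjusted p 0.0137) and Serpina3i by 3.94 ± 0.88 (edgeR adjusted p 0.0165), from at most 6 to at least 23 counts per library. The call for each was lost without low glucose replicate 2, and for Serpina3i also without low glucose replicate 1. Serpina3g had -1.66 ± 0.65 (edgeR adjusted p 0.0953) and passed downward with the replicate block, with islet endocrine scaling and without high glucose replicate 1. Serpina3a, Serpina3b and Serpina3k had no counts in any library, and Serpina3c, Serpina3h and Serpina3m had at most 6. The cluster's members therefore differed in whether they were detected.

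Saa3, the serum amyloid A gene made mainly outside the liver, lies at chr7:46711998-46715700 on the minus strand. It had 3, 2 and 5 counts at low and 78, 23 and 41 at high glucose, or 0.457 ± 0.288 and 1.99 ± 0.808 CPM (SD, n = 3 each). The groups did not overlap, but the level stayed low even at high glucose. Its log2 fold change was 2.20 ± 0.57, from 1.82 to 2.81 with 1 library left out, and 3.42 with library totals. The liver forms Saa1 and Saa2, 24.8 kb and 36.1 kb away, had 0 to 2 counts per library, and Saa4 had none.

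Orm1 encodes orosomucoid, an abundant plasma glycoprotein of the liver, at chr4:63344560-63348163 on the plus strand. It had no counts at low and 6, 1 and 16 at high glucose. Against 3 counts over the low glucose group this was at least 2.74-fold higher, and at least 6.01-fold with library totals. Without high glucose replicate 3 the log2 bound dropped from 1.45 to 0.24, so it rests largely on that library. Its copies Orm2 and Orm3 had 1 and 0 counts in all.

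Hp encodes haptoglobin, which binds free hemoglobin, at chr8:109575128-109579172 on the minus strand. It had 7, 1 and 11 counts at low and 23, 1 and 1 at high glucose. The ratio of scaled counts was 0.47 (exact 95% interval 0.248 to 0.902, counting error only), and 1.03 (0.546 to 1.98) with library totals. Replicate 1 held nearly all high glucose counts, and without it the log2 ratio moved from -1.09 to -3.96. With library totals the log2 ratio was 0.05, and the interval of that ratio lies on both sides of no difference. This value is below the shift of 1.16 that all genes showed on that scale, so no change of direction was shown. The libraries of Hp overlapped on both scales.

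C3 is the central complement component, cleaved by all complement pathways, at chr17:57203970-57228136 on the minus strand. It had 2194, 1075 and 2093 counts at low and 3053, 696 and 1312 at high glucose. On the TMM scale this was 184, 179 and 329 CPM at low against 108, 34.7 and 66.1 CPM at high glucose. The groups did not overlap on that scale, and the means were 230 ± 85.5 and 69.6 ± 36.8 CPM (SD, n = 3 each). The log2 fold change was -1.73 ± 0.44, from -2.19 to -1.36 with 1 library left out.

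With library totals C3 had 172, 101 and 179 CPM at low against 193, 47.5 and 92.7 CPM at high glucose, so the groups overlapped, and the log2 fold change was -0.44. Per length, C3 was the most abundant of the 10 at low glucose, at 44.8 ± 16.6 FPKM, and second to Lcn2 at high glucose, at 13.5 ± 7.15 FPKM (SD, n = 3 each). At high glucose C3 was highest in replicate 1 and lowest in replicate 2. Summed markers of macrophages (340, 86.1 and 147 CPM in high glucose replicates 1 to 3), of stellate cells and fibroblasts (524, 107 and 193 CPM) and of endothelium (361, 174 and 249 CPM) had that same order. At low glucose those sums were 264 to 363, 448 to 590 and 327 to 422 CPM. Their part in the C3 values was not tested.

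Cp encodes ceruloplasmin, a copper-carrying ferroxidase, at chr3:19957054-20009145 on the plus strand. It had 23.7, 38.1 and 56 CPM at low against 22.6, 30.6 and 37.8 CPM at high glucose, and the groups overlapped. The log2 fold change was -0.37 ± 0.33, and it turned to 0.86 with library totals, where every high glucose library (40.3, 41.9 and 53.1 CPM) lay above every low glucose library (22.2, 21.6 and 30.4 CPM). That value lies below the shift of 1.16 that all genes showed on that scale. Hps3, on the opposite strand, overlaps Cp and had 75 to 284 counts per library. Its reads could not be told apart from those of Cp without a stated strand setting.

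**Figure D3:**
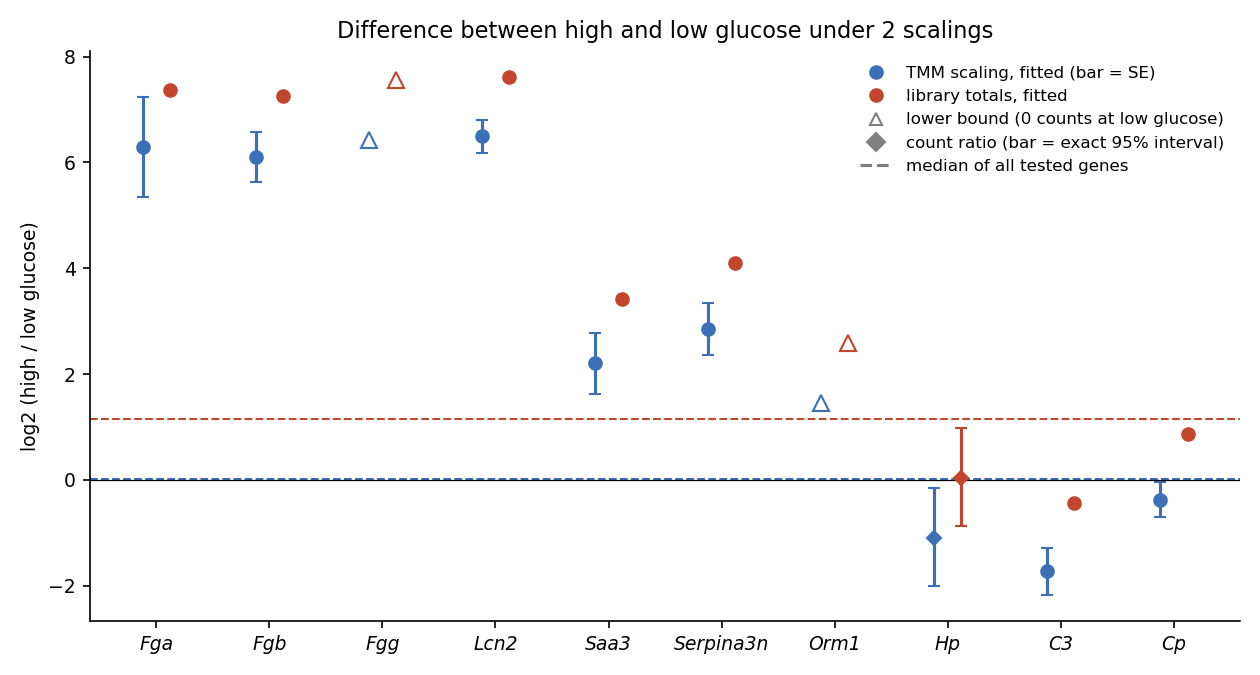
log2 ratio of high to low glucose for each gene under TMM scaling (blue) and library totals (red), with circles for fitted values (bar = SE, TMM only), open triangles for lower bounds and diamonds for count ratios with an exact 95% interval. Dashed lines mark the median of all tested genes, and Hp and Cp change sign between the scalings while C3 stays below 0.

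Per length, the order of the 10 genes at high glucose was led by Lcn2, C3, Serpina3n and Fgb, at 27.7, 13.5, 12.4 and 10.7 FPKM. Of these, C3, Serpina3n and Fgb lay within 1 SD of each other (SD 7.15, 5.76 and 3.77). Fgg (4.97 ± 2.38), Cp (3.17 ± 0.799) and Fga (2.42 ± 1.23) followed, and the gaps from Fgg to Cp and from Cp to Fga were smaller than the larger SD of each pair. Saa3 (0.764 ± 0.31), Orm1 (0.46 ± 0.514) and Hp (0.19 ± 0.274) came last, all with n = 3. At low glucose only C3 (44.8 ± 16.6), Cp (4.1 ± 1.69) and Serpina3n (1.76 ± 0.837) exceeded 1 FPKM.

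On TMM-scaled CPM, 7 genes were higher in every high glucose library. Replicate 2 was the lowest of the high glucose libraries for 6 of them, and replicate 3 was the highest for 6. Over all tested genes those shares were 32% and 23.4%. On that scale Lcn2 was the one lowest in replicate 1, and Saa3 the one highest there. With library totals Lcn2 was lowest in replicate 2 (86.5 CPM). Fgg (21.2 against 20.3 CPM) and Serpina3n (50.9 against 50 CPM) were then slightly higher in replicate 1 than in replicate 3. Replicate 2 also had the lowest macrophage, stellate cell and endothelial marker sums, and a part of these in the order was not tested.

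The other genes of the response were described from fixed lists, with counts over all 13996 tested genes as background: 13.3% of them rose and 14.2% fell at adjusted p under 0.05. All adjusted p-values below come from edgeR's quasi-likelihood test with Benjamini-Hochberg adjustment over all tested genes. Values after ± are standard errors.

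Of 20 tested genes among 42 other positive acute-phase genes, 11 rose and 3 fell, with a median log2 fold change of 1.47 against 0.01 for all tested genes. The 22 others were below the filter, so these counts cover expressed genes only. Of the genes that rose, Hamp, Serpina3f and Serpina3i had at most 6 counts per low glucose library. They passed the filter through the high glucose libraries alone, so the share that rose and the median depend on the filter. With DESeq2, which kept 36 of the list's genes, among them genes below the filter, the median was -0.04 (-0.16 for all genes), but it was 1.5 over the same 20. With no filter the median was 1.05. Without low glucose replicate 2 only 4 rose and without low glucose replicate 1 only 7, and without high glucose replicate 1 the number that fell was 5, as it was with the replicate block. Hamp, the gene of the iron hormone hepcidin, had no counts at low and 391, 268 and 264 at high glucose, at least 110-fold higher (adjusted p 0.00057). Its near-identical copy Hamp2 fell by 3.55 ± 0.49 (adjusted p 0.00294), from 270, 376 and 250 to 52, 104 and 72 counts. The 2 copies thus moved in opposite directions, though how reads that match both were counted is not stated.

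Il1rn, which encodes the secreted antagonist of the IL-1 receptor, rose from 1.09 ± 0.354 to 34.5 ± 3.69 CPM (SD, n = 3 each), by 5.02 ± 0.26 on the log2 scale (adjusted p 0.000289). Cd14, the co-receptor for bacterial lipopolysaccharide, rose by 4.01 ± 0.38 (adjusted p 0.00106), and the lysosomal protease gene Ctsb by 1.46 ± 0.21 (adjusted p 0.00315). The list's largest decrease was Pigr, the epithelial transporter of immunoglobulin A, at -5.28 ± 0.76 (adjusted p 0.00325). Each of these calls, and those of Hamp and Hamp2, was made under all 14 alternatives run.

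Among 9 tested negative acute-phase genes, whose proteins usually drop in plasma, 4 fell and 2 rose. Apoa1, an apolipoprotein of intestine and liver, fell by 6.93 ± 1.31 (adjusted p 0.00916), and Alb, the albumin gene, had 18 to 21 counts at low and 3 to 9 at high glucose (-3.20 ± 0.50, adjusted p 0.00467). The transthyretin gene Ttr fell by 1.65 ± 0.27 (adjusted p 0.00508) and did not pass with library totals. Ttr is also on the islet endocrine marker list, and the part of islet cells in its decrease was not tested. Serpina7, the thyroxine-binding globulin gene, rose from 4.47 ± 0.601 to 63.2 ± 13.9 CPM (SD, n = 3 each), by 3.83 ± 0.22 (adjusted p 0.000389), and Gc, the vitamin D-binding protein gene, by 1.53 ± 0.29 (adjusted p 0.0097). The list's median was 0.13, and it was -0.36 with DESeq2 and -0.23 with no filter, which take in 14 genes. Summed intestinal epithelium markers were 5552 to 11399 CPM at low against 303 to 3848 CPM at high glucose, with 16 of 18 tested lower, and their part in the decreases of Apoa1 and Pigr was not tested.

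Hepatocyte genes were measured beside the fibrinogen genes. Hpd and Cyp7a1 had no counts in any library, and Alb was at 0.248, 0.449 and 0.151 CPM in the high glucose libraries, where Fgb was at 42.3, 25.6 and 54.2 CPM. The 19 hepatocyte genes together took 0.0333% to 0.194% of counts at low and 0.0032% to 0.0137% at high glucose, and 6 of the 10 tested fell while none rose. Part of that list, such as Apoa1 and Cyp3a11, is also expressed by intestine. Arg1, also of that list, had 27.8 CPM in high glucose replicate 1. It had 4.94 and 6.35 CPM in high glucose replicates 2 and 3, within the 4.49 to 6.44 CPM seen at low glucose. A hepatocyte part in the fibrinogen values was not tested.

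Markers of duct cells, the epithelium of the exocrine ducts, were measured as well. They took 0.0852% to 0.124% of counts at low and 0.972% to 1.41% at high glucose, a summed level of 1322 to 1592 CPM against 5449 to 10275 CPM. Of 18 tested duct markers, 8 rose and 3 fell, and all 19 were detected. Duct markers were lowest in high glucose replicate 1 and highest in replicate 2, an order that Fga, Fgb and Fgg, all lowest in replicate 2, did not share. On the TMM scale Lcn2 was lowest in replicate 1 as well, but highest in replicate 3. With library totals Lcn2 was lowest in replicate 2. The part of duct cells in these levels was not tested. Neutrophil markers, of interest as neutrophils store lipocalin 2, summed to 4.32 to 16.8 CPM at low against 1.7 to 13.6 CPM at high glucose, with Ly6g at 0, and their part in the Lcn2 values was not tested.

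Of 29 tested genes of IL-6 family signaling, 9 rose and 6 fell, with a median of 0.23. The cytokine genes led the increases. Il6 had 0, 2 and 0 counts at low and 427, 162 and 312 at high glucose, a log2 fold change of 7.13 ± 0.76 (adjusted p 0.00137). Il11 had 4, 1 and 0 counts at low and 743, 206 and 336 at high glucose (6.42 ± 0.64, adjusted p 0.00116). Lif rose from 0.905 ± 0.243 to 27.7 ± 4.72 CPM (SD, n = 3 each), by 4.88 ± 0.27 (adjusted p 0.000364). All 3 cytokine genes were lowest in high glucose replicate 2, as were the fibrinogen genes and 32% of all tested genes. On TMM-scaled CPM, Il11 and Lif were highest in replicate 1, while Il6 and the fibrinogen genes were highest in replicate 3. A link between these genes was not tested.

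Of the receptor genes of the family that passed in the main fit, Osmr alone rose and the others fell, Lifr and Il6ra among them. Osmr, the receptor of oncostatin M, rose from 6.93 ± 2.01 to 28.2 ± 14.5 CPM (SD, n = 3 each), by 2.02 ± 0.46 (adjusted p 0.0178), a call lost without low glucose replicate 1, low glucose replicate 2 or high glucose replicate 3. Lifr, the receptor of LIF, fell by 2.08 ± 0.19 (adjusted p 0.000948), and Il6ra, the IL-6 receptor, fell by 1.25 ± 0.27 (adjusted p 0.0139). The call of Il6ra was lost with library totals, with islet endocrine scaling, without low glucose replicate 1 and without high glucose replicate 3. Il6st, which encodes gp130, had 0.55 ± 0.17 (adjusted p 0.052), and it passed upward with DESeq2, library totals, no filter and without low glucose replicate 3. Pim3, a kinase gene, fell by 1.87 ± 0.22 (adjusted p 0.00168).

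Downstream, Stat3 rose from 111 ± 19.4 to 209 ± 47.6 CPM (SD, n = 3 each), by 0.92 ± 0.23 (adjusted p 0.0223), a call lost with islet endocrine scaling and without low glucose replicate 1, low glucose replicate 2 or high glucose replicate 3. Socs3, the feedback inhibitor induced by STAT3, rose from 14.2 ± 6.69 to 60.3 ± 12.7 CPM, by 2.09 ± 0.34 (adjusted p 0.00509), under all 14 alternatives.

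Of 40 tested genes of the IL-1, TNF and NF-kappaB inputs, 13 rose and 2 fell, with a median of 0.47. Without low glucose replicate 2 only 6 rose, and without high glucose replicate 3 only 7. Only 1 fell when any one of low glucose replicates 2 and 3 or high glucose replicates 2 and 3 was left out. Nfkb2, a precursor subunit of the alternative NF-kappaB pathway, rose from 15.9 ± 2.2 to 62.3 ± 6.86 CPM (SD, n = 3 each), by 1.97 ± 0.17 (adjusted p 0.000697). Relb, its partner subunit, rose by 1.85 ± 0.29 (adjusted p 0.00459), and Myd88, the adaptor of IL-1 and Toll-like receptors, by 1.35 ± 0.20 (adjusted p 0.00354). Nfkbiz, a nuclear regulator needed for Lcn2 induction in several cell types, rose by 1.21 ± 0.21 (adjusted p 0.00602).

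The receptor gene Tnfrsf1a rose by 0.85 ± 0.13 (adjusted p 0.00429), which did not pass with islet endocrine scaling. The ligand gene Il1b had 1.27 ± 0.62 (adjusted p 0.16) and was high in 1 library, at 9.2 CPM in high glucose replicate 1 against 1.5 to 3.28 CPM in the other 5. With the replicate block Il1b passed upward, as it did with library totals, and each high glucose library lay above the low glucose library of the same number. Tnf had 1.12 ± 0.50 (adjusted p 0.133), passed upward with library totals only, and stayed at or below 1.05 CPM. Il18 fell by 3.72 ± 0.45 (adjusted p 0.00185). Irak1, the other gene of the list that fell, had 0.46 with library totals against -0.76 with TMM scaling, and its call was made in 6 of 14 alternatives.

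Of 23 tested acute-phase transcription factors, 6 rose and 7 fell, with a median of -0.34. Without low glucose replicate 2 only 4 fell. Cebpb rose from 21.1 ± 5.94 to 93.4 ± 5.29 CPM (SD, n = 3 each), by 2.15 ± 0.21 (adjusted p 0.00116), and Cebpd by 2.13 ± 0.32 (adjusted p 0.00389). Both encode C/EBP factors of inflammation. Hif1a, the hypoxia factor gene, rose by 1.61 ± 0.16 (adjusted p 0.00116). The factors that fell included those of liver and gut: Hnf4g (-4.58 ± 0.53, adjusted p 0.00164), Creb3l3 (-5.23 ± 0.63, adjusted p 0.0018) and Nr1i2 (-6.61 ± 0.68, adjusted p 0.00133), beside the lower intestinal markers.

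Hnf4a, a hepatocyte nuclear factor also present in islets, fell by 1.38 ± 0.35 (adjusted p 0.0255), a call lost with library totals, with islet endocrine scaling and without low glucose replicate 1, low glucose replicate 2 or high glucose replicate 3. Nr3c1, the glucocorticoid receptor gene, also fell with TMM scaling (-0.51) but had 0.63 with library totals, and its call was made in 7 of 14 alternatives.

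Motif matches were counted in 300-base RefSeq windows, of which 8 of the 10 genes had at least 1 and Hp and Orm1 none. A C/EBP match on either strand was found for 6 of the 8 genes, against 10.8% of all 32851 windows. STAT3 matches were found for 2 genes (8.3% of all windows). No match to the NF-kappaB motif was found for the 8 genes (8.46%). Cp has 2 windows, so a gene could match through either. The C/EBP match of C3, TTGCGAAA, lies 45 bases before its start and that of Saa3, TTATGCAA, 99 bases before. The matches of Lcn2 and Cp lie in windows that are largely GENCODE exon (197 and 195 of 250 upstream bases), so they are not upstream of those genes as GENCODE places them. A match is a description and not a bound site.

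**Figure D4:**
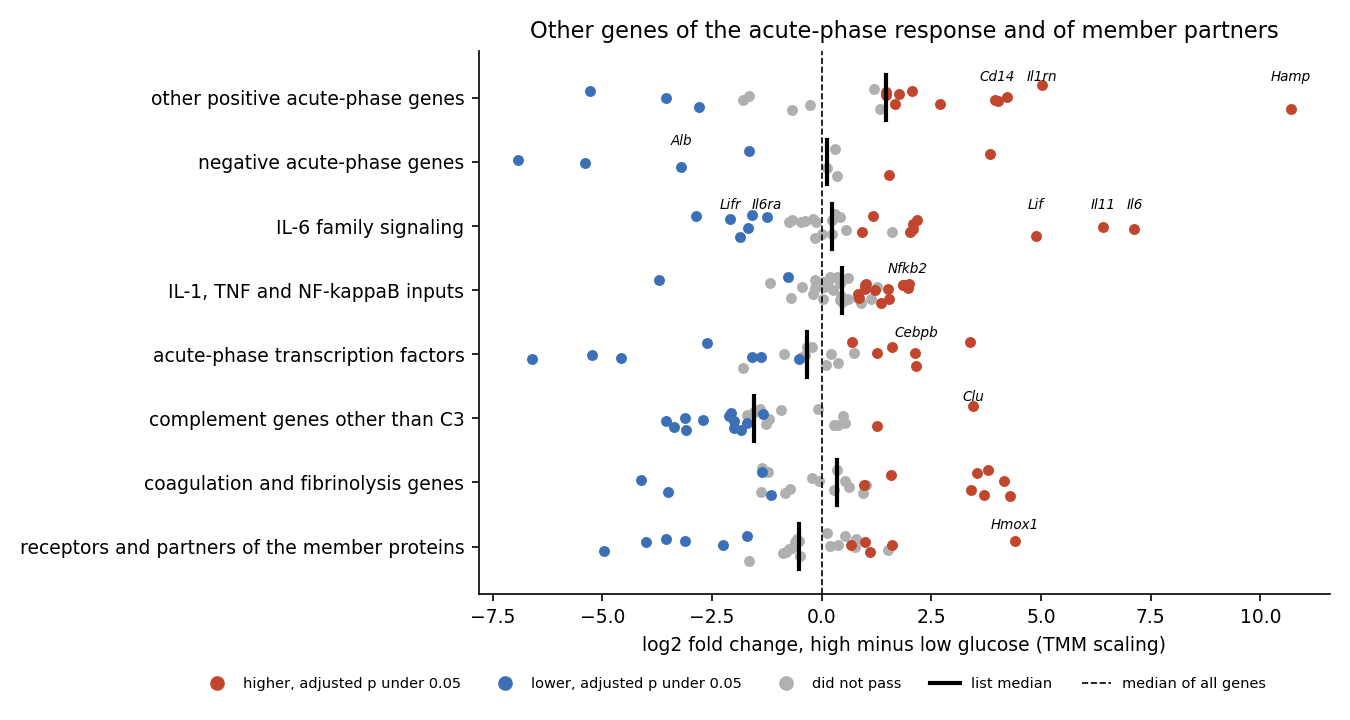
log2 fold change (high minus low glucose, TMM scaling) of every tested gene in the 8 fixed lists, 1 point per gene, coloured by the edgeR call, with the list median as a bar. The cytokine genes Il6, Il11 and Lif lie far right and most complement genes lie left of 0, and the point for Hamp is a fitted value that depends on the prior count since its low glucose counts are 0.

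Of 25 tested complement genes other than C3, 12 fell and 2 rose, with a median of -1.55 (-0.32 with library totals, where 4 fell and 5 rose). Without low glucose replicate 2, 7 fell and none rose, and without low glucose replicate 1 only 1 rose. Vtn, the gene of vitronectin, which blocks the terminal complex, fell from 188 ± 85.8 to 18.3 ± 7.99 CPM (SD, n = 3 each), by 3.36 ± 0.49 (adjusted p 0.0034). C1rl, a protease gene, fell by 2.01 ± 0.39 (adjusted p 0.01). Beside these decreases, acinar markers fell in 31 of 34 and intestinal markers in 16 of 18 cases, against 14.2% of all tested genes. Of 16 macrophage markers, 3 fell and 2 rose, and of 14 stellate cell and fibroblast markers, 4 fell and none rose. The macrophage markers include the complement gene C1qa, 1 of the 12 that fell. The part of these cells in the complement values was not tested.

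C8b, a terminal component gene, fell by 2.00 ± 0.27 (adjusted p 0.00264) and Cd59a, a membrane inhibitor gene, fell by 1.70 ± 0.25 (adjusted p 0.00383), and neither passed with library totals. The 2 genes that rose were inhibitors, named after their values were seen: Clu, the clusterin gene, by 3.45 ± 0.75 (adjusted p 0.0144), and Serping1, the C1 inhibitor gene, by 1.26 (adjusted p 0.0121). Neither passed without low glucose replicate 2, nor Serping1 without low glucose replicate 1. C3ar1, the receptor of the fragment C3a, averaged 1.84 ± 0.61 CPM at low glucose and 2.63 ± 0.944 CPM at high (SD, n = 3 each) and did not pass (0.53 ± 0.41, adjusted p 0.367).

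Of 25 tested coagulation and fibrinolysis genes, 8 rose and 4 fell, with a median of 0.34. With DESeq2, which kept 39 of the list's genes, the median was -0.04, and 0.38 over the same 25. With any of low glucose replicate 3 or high glucose replicates 2 and 3 left out 2 fell, and without low glucose replicate 1 or 2 only 1 did. The increases covered both sides of fibrin turnover. F3, the gene of tissue factor, which starts clotting, rose by 1.59 ± 0.23 (adjusted p 0.00325). Plat, the gene of tissue plasminogen activator, which starts fibrin breakdown, rose from 5.97 ± 0.579 to 70.5 ± 29 CPM (SD, n = 3 each), by 3.55 ± 0.34 (adjusted p 0.00106).

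Plaur, the urokinase receptor gene, rose by 3.40 ± 0.19 (adjusted p 0.000377), and Procr, the protein C receptor gene, by 3.79 ± 0.27 (adjusted p 0.00057). The calls of F3, Plat, Plaur and Procr were made under all 14 alternatives. F8, one of the 4 that fell, had -1.15 with TMM scaling and 0.01 with library totals, and its call was made in 6 of 14 alternatives.

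Of 27 tested receptors and partners of the 10 proteins, 5 rose and 6 fell, with a median of -0.51. Without high glucose replicate 3, low glucose replicate 2 or low glucose replicate 3 only 3 rose, without high glucose replicate 1 the number that fell was 10, and with the replicate block 8 rose. Slc22a17, a receptor of lipocalin 2, averaged 18.7 ± 7.63 CPM at low glucose and 12.3 ± 4.03 CPM at high (SD, n = 3 each) and did not pass (-0.60 ± 0.36, adjusted p 0.254). Lrp2, another lipocalin 2 receptor, had 1 to 4 counts per library. Cd163, the macrophage receptor of haptoglobin with hemoglobin, fell from 31, 14 and 40 to 7, 1 and 0 counts (-4.96 ± 0.85, adjusted p 0.00615). Itga5, an integrin subunit gene, rose by 1.60 ± 0.26 (adjusted p 0.00533).

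Genes of iron and heme handling, the field of lipocalin 2, haptoglobin and ceruloplasmin, moved in both directions in that list. Heph, a membrane ferroxidase related to ceruloplasmin, fell from 42.7 ± 15.9 to 2.63 ± 0.951 CPM (SD, n = 3 each), by 4.01 ± 0.41 (adjusted p 0.00122). Slc40a1, the gene of the iron exporter ferroportin, fell by 2.24 ± 0.37 (adjusted p 0.00532) and did not pass with library totals. Heph is also expressed by intestine, whose markers fell as given above. Hmox1, which encodes the heme-degrading oxygenase, rose by 4.40 ± 0.34 (adjusted p 0.00057).

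Genes whose profile over the 6 libraries was closest to that of Lcn2, Fgb or C3 were found among 8115 genes with a mean of at least 10 CPM. Likeness was the root mean square difference of log2 CPM after each gene was centred on its own mean. For Lcn2 the closest were Rgs4 (0.30), Fgb (0.42) and Gsdma (0.44). For Fgb they were Gsdma (0.36), Fosl1 (0.38) and Lcn2 (0.42). Lcn2 and Fgb were chosen for the same contrast, which dominates these profiles, and reach the 10 CPM mean through the high glucose libraries alone, so nothing is read from their likeness to each other. For C3 they were Sparcl1 (0.23), Lcp1 (0.23) and Col15a1 (0.26). Rgs4 had 7.81 to 9.46 CPM at low against 318 to 420 CPM at high glucose, and Sparcl1 had 50.9 to 73 and 8.24 to 31.9 CPM.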

How the data were processed

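Values were deposited by the authors as whole-number read counts for each gene and library, without normalization. STAR 2.7.3a, HTSeq 0.6.1p1 and GRCm38 are named per the submitters' processing notes. No source used here states the annotation release, the strand setting or whether molecular barcodes were counted, so intervals from counts cover counting error only, and reads of overlapping genes could not be told apart. Genes were named from GENCODE M21 on GRCm38, and the 495 without a name held 0.0141% of counts.

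High and low glucose (3 libraries each) were compared with edgeR 4.0.16 in R 4.3.3, by its quasi-likelihood F-test with TMM scaling, filterByExpr (minimum count 10, minimum total 15) and a Benjamini-Hochberg adjusted p under 0.05. Each SE was taken as log2 fold change over the root of F. FPKM is TMM-scaled CPM per kilobase of exon. A floor of 3 counts over a group stood in for 0. The fit was checked on simulated counts before use.

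The 10 genes, the 8 gene lists and the 9 marker lists were chosen with earlier results of these data known. Named genes were the 10, at most 5 per list past the threshold with the smallest p and a mean of at least 1 CPM, the 3 closest profiles (log2 of CPM plus 1) of Lcn2, Fgb and C3, and fixed relatives, receptors and regulators. Genes within 100 kb, Pigr, Osmr, Arg1, C1qa, Cyp3a11, Clu, Serping1, Irak1, Nr3c1 and F8 were named after their values were seen. Some genes that this rule names are not reported here.

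Both groups carry replicate numbers 1 to 3. Deviations from the group means correlated at 0.40, 0.26 and 0.26 for same-numbered libraries and between -0.32 and 0.11 for the others. The numbers may therefore pair the libraries, although no label says so. Since no pairing is stated, the main fit had no replicate block. A paired fit was run beside it, with other scalings, filters, DESeq2 1.42.0 and each library left out in turn. Promoter windows came from RefSeq (GRCm38.p6), with 8 of the 10 genes matched by symbol.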

Additional observations from a re-analysis of the deposited data

How the results depend on the processing

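Depth limits Orm1, with 23 counts in all, and Hp, with 19 counts at low and 25 at high glucose, and the low glucose level of the fibrinogen genes, while the acinar share of each library limits every scaling. Library totals gave 8337 genes higher and 628 lower, and log2 values of 7.37 for Fga, 7.25 for Fgb, 7.62 for Lcn2, 3.42 for Saa3, 4.10 for Serpina3n and -0.44 for C3, with bounds of 7.56 for Fgg and 2.59 for Orm1. They put Hp at 0.05 and Cp at 0.86, both below the median of 1.16 for all tested genes on that scale. In the lists they gave 4 negative acute-phase genes higher, 20 IL-6 family genes higher and 3 lower, 31 NF-kappaB inputs higher and 1 lower, and 12 transcription factors higher and 4 lower. They gave 5 complement genes higher and 4 lower, 14 coagulation genes higher and 2 lower, and 10 receptors and partners higher and 3 lower. Islet endocrine scaling gave 1044 genes higher and 1046 lower, 6.81 for Lcn2, 1 NF-kappaB input lower and 2 coagulation genes lower. With no filter, 5 positive acute-phase genes, 1 NF-kappaB input and 2 coagulation genes were lower, and with a 1 CPM filter 2 coagulation genes were. DESeq2 gave 5 positive acute-phase genes lower. The replicate block gave 2197 genes higher and 2473 lower, 5 positive acute-phase genes lower and 8 receptors and partners higher, and moved no other count by over 1.5 times. With 1 library left out, 708 to 2793 genes were higher (lowest without low glucose replicate 2, highest without high glucose replicate 1) and 1035 to 2892 lower (the same libraries). Log2 values ran from 5.43 to 9.98 for Fga, 5.80 to 6.71 for Fgb, 1.82 to 2.81 for Saa3 and -3.96 to -0.26 for Hp. The value of 9.98 was fitted with no low glucose count left and depends on the prior count. The bounds ran from 5.45 to 6.72 for Fgg and 0.24 to 1.90 for Orm1. Positive acute-phase genes were higher in 4 to 12 and lower in 3 to 5 cases, NF-kappaB inputs higher in 6 to 13 and lower in 1 to 3, and transcription factors lower in 4 to 8. Complement genes were higher in 0 to 3 and lower in 7 to 17 cases, coagulation genes lower in 1 to 6, and receptors and partners higher in 3 to 5 and lower in 4 to 10. The cause of these shifts was not tested. Of 393 values, 313 stayed within their spread or within 1.5 times. The number of the 10 genes with every high above every low glucose library was 8 with library totals and 7 otherwise, a count that other filters, the replicate block or leaving out a library cannot lower.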
